A study of Mus musculus with 6 samples.

Results

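The genes described here carry glucose through glycolysis to lactate or to the mitochondrion. They comprise glucose transporters, hexokinases, the enzymes from glucose-6-phosphate isomerase to pyruvate kinase, the PFKFB enzymes, lactate dehydrogenases, monocarboxylate transporters, kinases and subunits of the pyruvate dehydrogenase complex, and the hypoxia factor Hif1a. They were taken by their Entrez gene IDs, and all 34 were found among the 27179 genes of the table. RNA-seq of polyadenylated RNA was carried out on splenic dendritic cells of mice, sorted as CD8-negative and lysed without culture. The tested cells came from CpG-pretreated C57BL/6 mice (3 libraries, numbered 2, 3 and 4) and were set against cells from untreated C57BL/6 mice (3 libraries with the same numbers). The series concerns dendritic cells described as paralysed after systemic inflammation, and the comparison asks how CpG pretreatment had altered their RNA. The sources used here do not state the sequence, dose, route or timing of the CpG, the age of the mice, or whether a library came from 1 mouse or a pool.

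Glycolysis splits glucose into pyruvate with a small yield of ATP. Hexokinase traps glucose in the cell, phosphofructokinase commits it to the pathway, and the PFKFB enzymes set the level of fructose 2,6-bisphosphate, the strongest activator of phosphofructokinase. Lactate dehydrogenase turns pyruvate into lactate, which leaves the cell through monocarboxylate transporters, whereas the pyruvate dehydrogenase complex sends it into the citric acid cycle unless pyruvate dehydrogenase kinases switch that complex off. Dendritic cells are known to raise glycolytic flux when ligands such as CpG DNA engage Toll-like receptors, and Hif1a encodes the oxygen-regulated factor that drives many genes of the pathway.

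Total counts lay between 7855500 and 8228140 per library, and every one of the 34 genes passed the filter on low counts, with at least 7 counts in each library. Values in CPM, which scale counts to a common library size, are on TMM-scaled library sizes. The dendritic cell gene Zbtb46 had 138, 177 and 163 CPM in the CpG-pretreated libraries numbered 2, 3 and 4, against 145, 163 and 176 CPM in their untreated counterparts, and Cd8a lay between 1.23 and 4.69 CPM in all 6. Summed markers of T cells and NK cells stayed at or below 4.42 CPM in each library. Sums of B cell markers lay between 42.1 and 59.7 CPM, and those of plasmacytoid dendritic cells between 119 and 157 CPM. Plasma cell markers summed to between 159 and 254 CPM. No member of these lists was called in either fit described below. Markers of red blood cell precursors, red pulp macrophages, monocytes, neutrophils and both dendritic cell subsets (cDC1 and cDC2), and cell cycle genes, held members called in at least 1 of the fits described below. Their values are given at the end.

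Hypoxia factors bind a DNA core that reads ACGTG or GCGTG, so the windows at the gene starts were searched for both words on both strands. The RefSeq promoter table (GRCm38.p6, from 250 bases before to 50 bases after a start) held 33 of the 34 genes, Slc2a3 being the one without an entry. Of these 33 genes, 19 (57.6%) had ACGTG in at least 1 window, compared with 21.8% of the 27025 genes in the table. GCGTG was found for 22 (66.7%) and in 35.2% of all genes, and either word for 29 (87.9%) and in 46.7% of all genes. The longer word CACGTG, which overlaps ACGTG, was found for 6 (18.2%) and in 8.09% of all genes. A gene with more windows is more likely to hold a word, and the 33 genes had 51 windows. By window, ACGTG was in 45.1% of these 51 and in 19.6% of all 32851. Either word was in 76.5% and 43.8%. A match is a description of the letters only. The windows of Eno3, Slc16a1 and Hk1 are shown because the expression results below turn on these genes, each read 5′ to 3′ along its gene, with the 2 core words and their reverse complements in capitals. Eno3 lies on the + strand (chr11:70656926-70657225), Slc16a1 on the + strand (chr3:104638414-104638713) and Hk1 on the - strand (chr10:62340372-62340671).
Eno3: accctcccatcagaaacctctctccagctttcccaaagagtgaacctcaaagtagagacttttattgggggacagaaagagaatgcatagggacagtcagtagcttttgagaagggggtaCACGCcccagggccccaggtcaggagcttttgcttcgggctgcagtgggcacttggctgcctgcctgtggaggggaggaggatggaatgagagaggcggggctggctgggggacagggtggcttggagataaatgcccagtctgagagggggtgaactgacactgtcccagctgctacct
Slc16a1: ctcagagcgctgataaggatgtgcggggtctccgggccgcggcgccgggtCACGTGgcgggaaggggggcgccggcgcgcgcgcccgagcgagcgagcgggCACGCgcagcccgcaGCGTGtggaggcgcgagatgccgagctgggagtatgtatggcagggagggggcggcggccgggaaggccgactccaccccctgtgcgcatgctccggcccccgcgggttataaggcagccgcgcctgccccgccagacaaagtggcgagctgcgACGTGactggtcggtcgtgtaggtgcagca
Hk1: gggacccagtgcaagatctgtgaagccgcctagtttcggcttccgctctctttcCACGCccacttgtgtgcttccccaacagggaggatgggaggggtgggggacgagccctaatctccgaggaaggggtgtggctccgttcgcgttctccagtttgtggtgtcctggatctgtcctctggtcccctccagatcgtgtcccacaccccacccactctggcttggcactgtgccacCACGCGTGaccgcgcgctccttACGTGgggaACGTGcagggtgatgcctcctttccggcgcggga
The Eno3 window held 1 GCGTG and no ACGTG. The Slc16a1 window held 3 occurrences of ACGTG, with a CACGTG counted on both strands, and 2 of GCGTG. The Hk1 window held 2 of ACGTG and 3 of GCGTG, while another Hk1 start (chr10:62379859-62380158) had neither.

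Summed over the glycolysis genes, the groups overlapped. The 34 genes came to 2895, 2976 and 2732 CPM in the CpG-pretreated libraries numbered 2, 3 and 4, against 2794, 2833 and 2856 CPM in their untreated counterparts. At an edgeR adjusted p under 0.05, 1 of the 34 genes was called, Eno3, which fell, and none rose. Over all 11602 genes tested, 0.974% were called (0.474% higher and 0.5% lower). At an unadjusted p under 0.05, 7 of the 34 genes passed, 5 higher and 2 lower in CpG-pretreated cells, compared with 1485 of all 11602 genes tested. The log2 fold change was above 0 for 24 genes and below 0 for 10, and its size was under 0.5 for 27. Over all genes tested it was above 0 for 5671 and below 0 for 5931, and its size was under 0.5 for 10382. The median size, regardless of sign, was 0.16 over the 34 genes and 0.13 over all genes tested. The median log2 fold change was 0.11 over the 34 genes and -0.01 over all genes tested.

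Same-numbered libraries deviated together, so a second fit took the replicate number as a block. It called 4 of the 34 genes, with Hk1 and Slc16a1 higher and Slc2a3 and Eno3 lower in CpG-pretreated cells, where 8.52% of all genes were called (4.73% higher and 3.78% lower). The groups did not overlap in CPM for 8 of the 34 genes, 6 higher and 2 lower in CpG-pretreated cells, compared with 18.7% of all genes (9.20% higher and 9.47% lower). Between same-numbered libraries the median log2 difference over the 34 genes was 0.14 for number 2, 0.12 for number 3 and 0.01 for number 4.

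**Figure D1:**
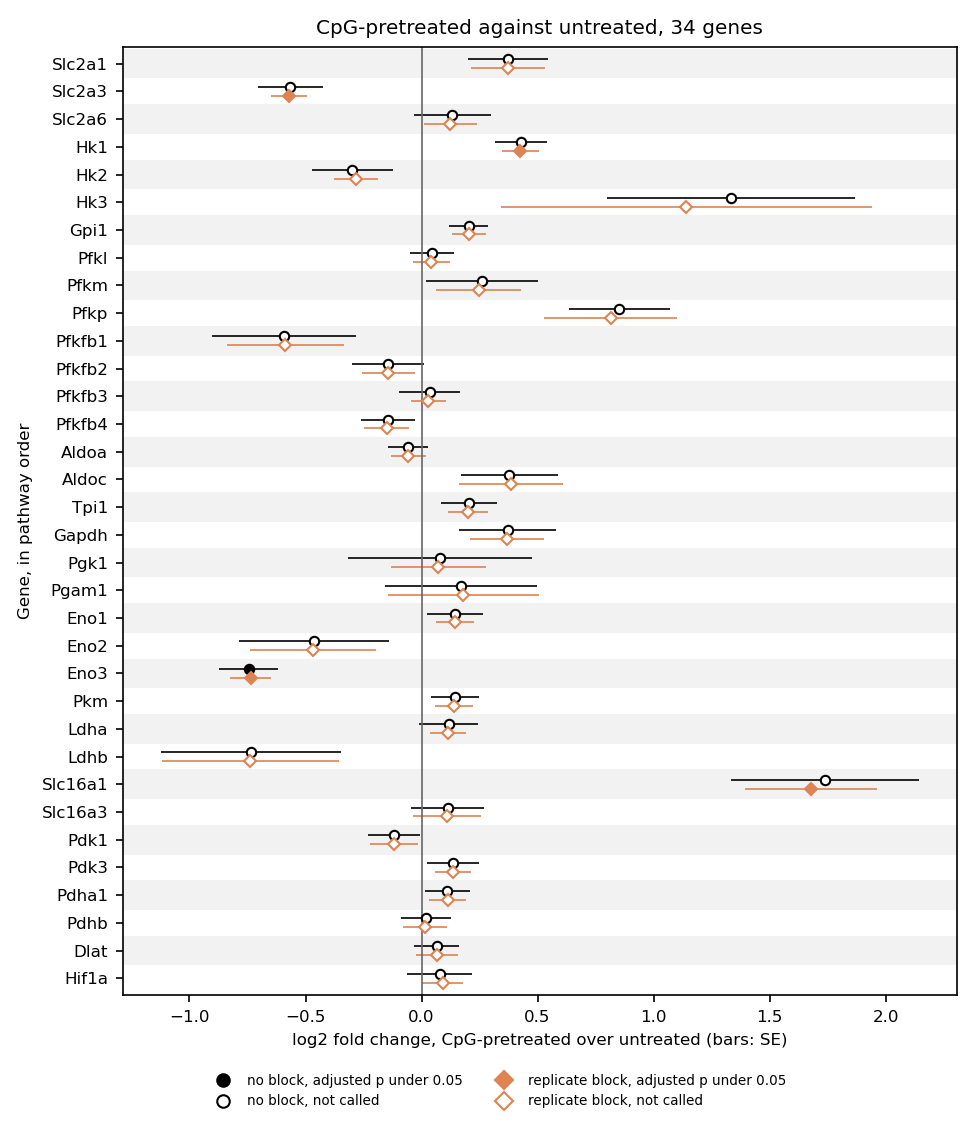
Log2 fold change of CpG-pretreated over untreated cells for each of the 34 genes in pathway order, with bars of 1 standard error (n = 3 per group). Circles are the fit without and diamonds the fit with the replicate block, filled where the adjusted p was under 0.05. Eno3, at -0.75, was the one gene called without the replicate block, and most genes lay close to 0.

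Levels of different genes were compared as CPM per kilobase of the deposited gene length. Over the 6 libraries the mean was highest for Eno3 at 123 CPM per kilobase, followed by Ldha at 115, Pkm at 114, Gpi1 at 99.8, Aldoa at 70.8 and Pfkfb3 at 63.0. At the low end lay Slc16a1 at 1.78, Ldhb at 1.43 and Pgam1 at 1.29 CPM per kilobase. The place of Eno3 differed between the groups. In CpG-pretreated cells its mean of 92.1 CPM per kilobase stood below those of Pkm (119.7), Ldha (119) and Gpi1 (107), whereas in untreated cells its 154 CPM per kilobase stood above Ldha (110.1), Pkm (108) and Gpi1 (92.8). Gapdh, often used as an abundant reference gene, had 8.66 CPM per kilobase over the 6 libraries.

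**Figure D2:**
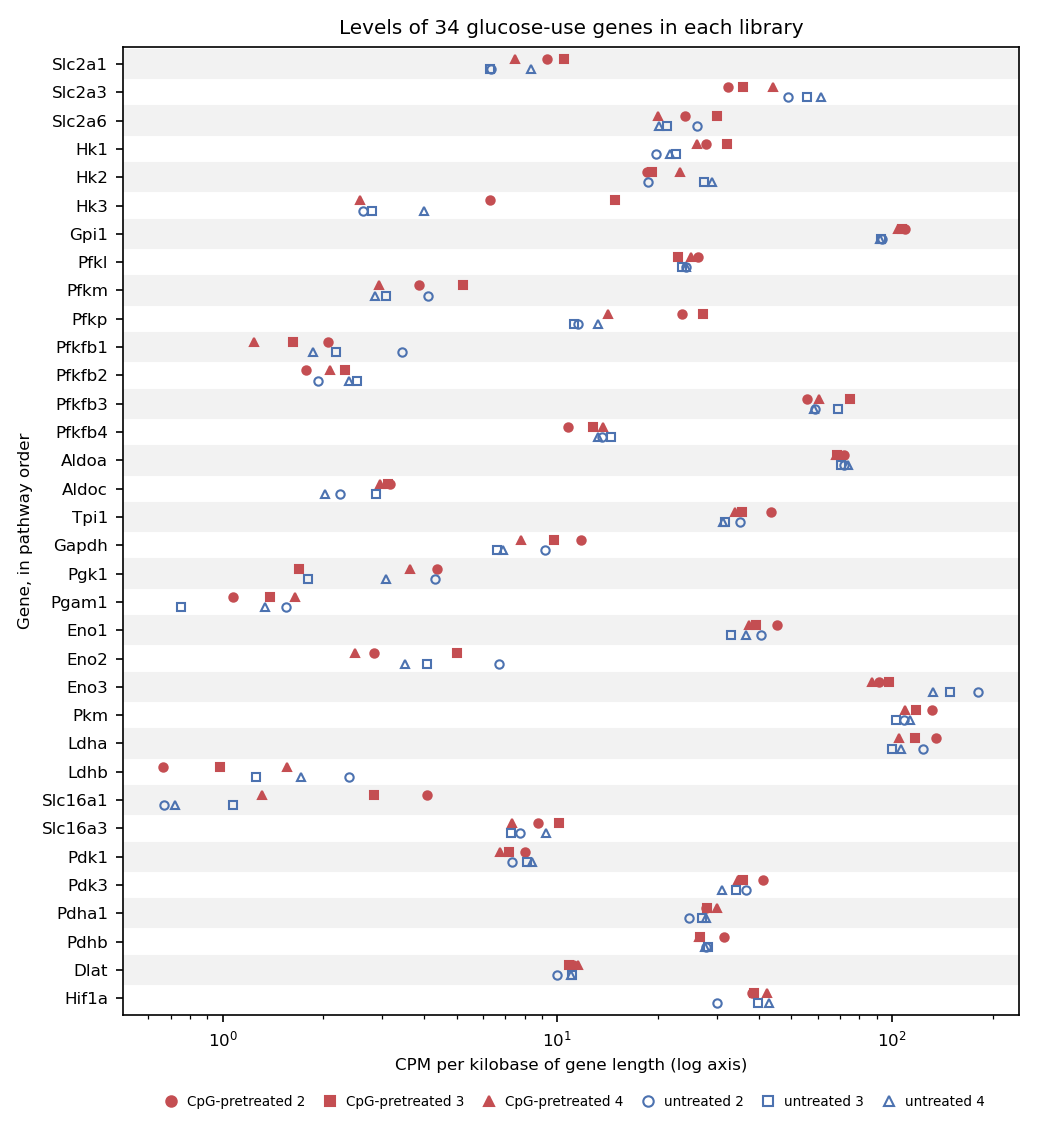
Level of each of the 34 genes in every library, as CPM per kilobase on a log axis, with CpG-pretreated and untreated libraries as separate points. Eno3, Ldha, Pkm and Gpi1 stood at the top and Pgam1 at the bottom, and for most genes the points of the groups overlapped.

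Among the glucose transporters, Slc2a3 was lower in CpG-pretreated cells in all 3 same-numbered pairs. Slc2a3 (chr6:122727809-122802363, mm10) encodes the high-affinity transporter GLUT3 and had 128, 142 and 175 CPM in the CpG-pretreated libraries numbered 2, 3 and 4, against 194, 221 and 243 CPM in their untreated counterparts. Every CpG-pretreated library lay below every untreated one. The mean was 148 ± 24.3 CPM in CpG-pretreated cells and 219.6 ± 24.7 CPM in untreated cells (SD, n = 3 each), and the log2 fold change (-0.57, SE 0.14, edgeR adjusted p = 0.107) did not pass the test. With the replicate block Slc2a3 fell, by 0.57 on the log2 scale (SE 0.08, edgeR adjusted p = 0.000364), and it was also called without CpG-pretreated library 4 (edgeR adjusted p = 0.0315). No other fit that left out 1 library called Slc2a3, and the edgeR adjusted p reached 0.339.

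Slc2a1, the widely expressed transporter GLUT1, averaged 23.4 ± 3.84 CPM in CpG-pretreated cells and 18.04 ± 3.01 CPM in untreated cells (SD, n = 3 each), and the groups overlapped. Its log2 fold change was 0.37 (SE 0.17, edgeR adjusted p = 0.425). Slc2a6, which encodes GLUT6, differed by 0.13 on the log2 scale (SE 0.17, edgeR adjusted p = 0.854). As a share of the CPM per kilobase of the 3 transporters, Slc2a1 made up 12.8% ± 2.02 in CpG-pretreated cells and 8.22% ± 0.930 in untreated cells (SD, n = 3 each) without overlap, whereas the shares of Slc2a3 overlapped.

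Of the hexokinases, only Hk1 was called, and only with the replicate block. Hk1 (chr10:62268855-62379920, mm10), the isozyme found in most tissues, had 125, 145 and 118 CPM in the CpG-pretreated libraries numbered 2, 3 and 4, against 89.0, 102 and 97.7 CPM in their untreated counterparts. All 3 CpG-pretreated libraries stood above all untreated ones. The mean was 129.6 ± 13.9 CPM in CpG-pretreated cells and 96.3 ± 6.76 CPM in untreated cells (SD, n = 3 each), and the log2 fold change (0.43, SE 0.11, edgeR adjusted p = 0.123) was short of the threshold. With the replicate block Hk1 rose by 0.43 on the log2 scale (SE 0.08, edgeR adjusted p = 0.00439). None of the 6 fits that each left out 1 library called Hk1 (edgeR adjusted p between 0.080 and 0.367). Exons of the antisense gene Hk1os overlap those of Hk1, and reads of the pair cannot be told apart where strand was not used.

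Hk2, the isozyme induced by hypoxia and growth signals, averaged 112 ± 13.9 CPM in CpG-pretreated cells and 138 ± 30.8 CPM in untreated cells (SD, n = 3 each), with overlap (log2 fold change -0.30, SE 0.17, edgeR adjusted p = 0.563). Hk3, the isozyme best known from myeloid cells (chr13:55005985-55021475, mm10), had 20.6, 48.6 and 8.44 CPM in the CpG-pretreated libraries numbered 2, 3 and 4, against 8.60, 9.13 and 13.0 CPM in their untreated counterparts. CpG-pretreated libraries 2 and 3 stood above all untreated ones and library 4 stood below them. The log2 fold change of 1.33 (SE 0.53) did not pass the test (edgeR adjusted p = 0.337). It was 1.75 without CpG-pretreated library 4 (edgeR adjusted p = 0.0446) and 0.51 without CpG-pretreated library 3 (edgeR adjusted p = 0.817), and exons of Unc5a overlap Hk3 on the other strand. Within the family Hk1 held 50.6% ± 2.14 in CpG-pretreated cells and 43.6% ± 4.28 in untreated cells, and Hk2 held 36.3% ± 7.87 in CpG-pretreated cells and 50.1% ± 4.10 in untreated cells (SD, n = 3 each, shares of CPM per kilobase), both without overlap.

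**Figure D3:**
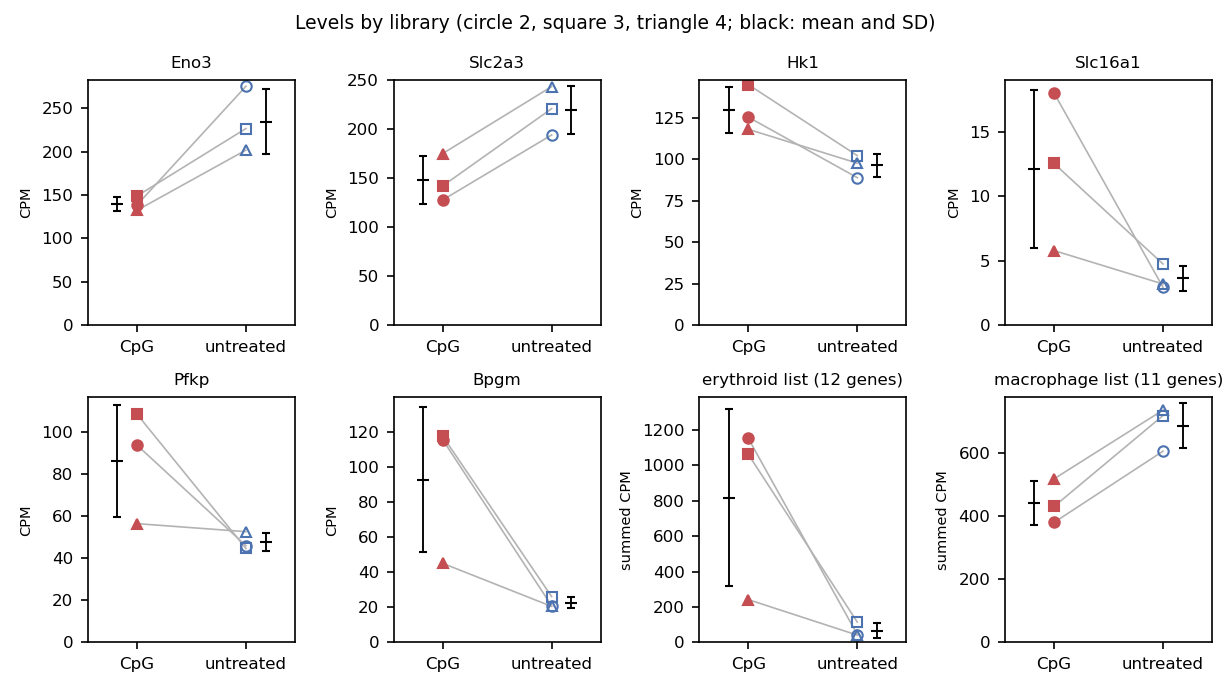
CPM in each library for 6 genes, and summed CPM of the erythroid and red pulp macrophage markers described at the end, with CpG-pretreated libraries to the left of untreated ones, a marker shape for each replicate number, lines joining equal numbers, and bars for mean and SD (n = 3). Eno3 and Slc2a3 were lower and Hk1, Slc16a1, Pfkp and Bpgm higher in CpG-pretreated cells without overlap. CpG-pretreated library 4 (triangle) was the lowest of its group for every gene shown but Slc2a3, and for the erythroid sum.

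Gpi1 (chr7:34201327-34230336, mm10), the isomerase that follows hexokinase, had small but evenly separated values. It had 313, 305 and 298 CPM in the CpG-pretreated libraries numbered 2, 3 and 4, against 267, 265 and 263 CPM in their untreated counterparts. The groups did not overlap and each spread over few CPM. The log2 fold change of 0.20 (SE 0.08) was short of the threshold (edgeR adjusted p = 0.359), also with the block (edgeR adjusted p = 0.114).

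Of the phosphofructokinases, the platelet isozyme Pfkp (chr13:6579874-6649060, mm10) differed most. It had 93.7, 108 and 56.4 CPM in the CpG-pretreated libraries numbered 2, 3 and 4, against 46.0, 44.6 and 52.6 CPM in their untreated counterparts. CpG-pretreated libraries 2 and 3 stood far above the untreated ones, and library 4 only just above. The log2 fold change was 0.85 (SE 0.22, edgeR adjusted p = 0.113), and 0.81 with the block (SE 0.29, edgeR adjusted p = 0.260), so Pfkp did not pass either test. Without CpG-pretreated library 4 the log2 fold change was 1.08 (edgeR adjusted p = 0.00514). No other fit that left out 1 library called Pfkp, and the edgeR adjusted p reached 0.352. Exons of Pitrm1 overlap Pfkp on the other strand.

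The liver isozyme Pfkl was nearly level, at 92.1 ± 6.503 CPM in CpG-pretreated cells and 89.4 ± 1.16 CPM in untreated cells (SD, n = 3 each, log2 fold change 0.04, edgeR adjusted p = 0.934). Pfkm, the muscle isozyme, was low in both groups (log2 fold change 0.26, SE 0.24, edgeR adjusted p = 0.778). As a share of the family's CPM per kilobase, Pfkp held 42.2% ± 7.88 in CpG-pretreated cells and 30.4% ± 2.08 in untreated cells, and Pfkl held 49.97% ± 9.05 in CpG-pretreated cells and 61.1% ± 1.17 in untreated cells (SD, n = 3 each). Neither share overlapped between the groups.

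Pfkfb3 (chr2:11471430-11554071, mm10), whose enzyme favours making fructose 2,6-bisphosphate and which inflammatory stimuli are known to induce, was the main PFKFB gene at 79.7% ± 1.87 of the family's CPM per kilobase in CpG-pretreated cells and 77.0% ± 1.27 in untreated cells (SD, n = 3 each). It had 295, 396 and 321 CPM in the CpG-pretreated libraries numbered 2, 3 and 4, against 312, 365 and 310.0 CPM in their untreated counterparts, so the groups overlapped (log2 fold change 0.03, SE 0.13, edgeR adjusted p = 0.967). Pfkfb1 showed the largest log2 fold change of the family, -0.59 (SE 0.31, edgeR adjusted p = 0.506), with 3.56, 2.79 and 2.14 CPM in the CpG-pretreated libraries numbered 2, 3 and 4, against 5.90, 3.75 and 3.20 CPM in their untreated counterparts. Those values overlapped at a low level. Pfkfb2 and Pfkfb4 had log2 fold changes of -0.14 and -0.15, and neither passed the edgeR test (adjusted p = 0.818 and 0.723).

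In the middle of the pathway no gene passed the test. Aldoa, the main aldolase, averaged 127 ± 3.89 CPM in CpG-pretreated cells and 132 ± 3.10 CPM in untreated cells (SD, n = 3 each, log2 fold change -0.06, edgeR adjusted p = 0.894). Aldoc had 5.40, 5.33 and 5.04 CPM in the CpG-pretreated libraries numbered 2, 3 and 4, against 3.81, 4.88 and 3.44 CPM in their untreated counterparts, without overlap but also without a call (log2 fold change 0.38, SE 0.21, edgeR adjusted p = 0.541). Tpi1, which interconverts the triose phosphates, had 69.5, 57.1 and 54.5 CPM in the CpG-pretreated libraries numbered 2, 3 and 4, against 56.3, 50.8 and 50.2 CPM in their untreated counterparts. Its groups overlapped (log2 fold change 0.20, SE 0.12, edgeR adjusted p = 0.570).

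Gapdh, Pgk1 and Pgam1, the next 3 steps of the pathway, were low although they are among the most abundant messages of many cells. Gapdh (chr6:125161852-125166467, mm10) had 14.5, 12.05 and 9.57 CPM in the CpG-pretreated libraries numbered 2, 3 and 4, against 11.3, 8.13 and 8.48 CPM in their untreated counterparts. The groups overlapped (log2 fold change 0.37, SE 0.21, edgeR adjusted p = 0.547). Pgk1, phosphoglycerate kinase, had 7.85, 3.04 and 6.55 CPM in the CpG-pretreated libraries numbered 2, 3 and 4, against 7.74, 3.25 and 5.53 CPM in their untreated counterparts, following the library number rather than the group (log2 fold change 0.08, SE 0.40, edgeR adjusted p = 0.972). Pgam1, phosphoglycerate mutase, had 1.96, 2.54 and 3.02 CPM in the CpG-pretreated libraries numbered 2, 3 and 4, against 2.83, 1.38 and 2.46 CPM in their untreated counterparts. These also overlapped (log2 fold change 0.17, SE 0.33, edgeR adjusted p = 0.923).

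These low genes share much of their sequence with other genes. In GENCODE M21 transcripts, 68.0% of the 50-base words of Pgk1, 58.4% of those of Gapdh and 41.5% of those of Pgam1 also occurred in other genes, most of them pseudogenes. Eno1 had 49.5% and stood higher, at 38.8 CPM per kilobase. The other 30 genes had at most 30.3%, and 12 genes, Eno3, Slc2a3 and Slc16a1 among them, had no shared word. Over the 34 genes the Spearman correlation of the shared percentage with CPM per kilobase was 0.03, given as a description. The sources used here do not say how reads with several matching genes were handled, and the part of sequence sharing in these levels was not tested. A stretch of 60 coding bases of Gapdh (positions 485 to 544 of the coding sequence, chromosome 6) that occurred unchanged in 68 other genes, 66 of them pseudogenes, is shown as an example of such sharing.
Gapdh: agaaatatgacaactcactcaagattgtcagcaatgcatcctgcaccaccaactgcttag

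**Figure D4:**
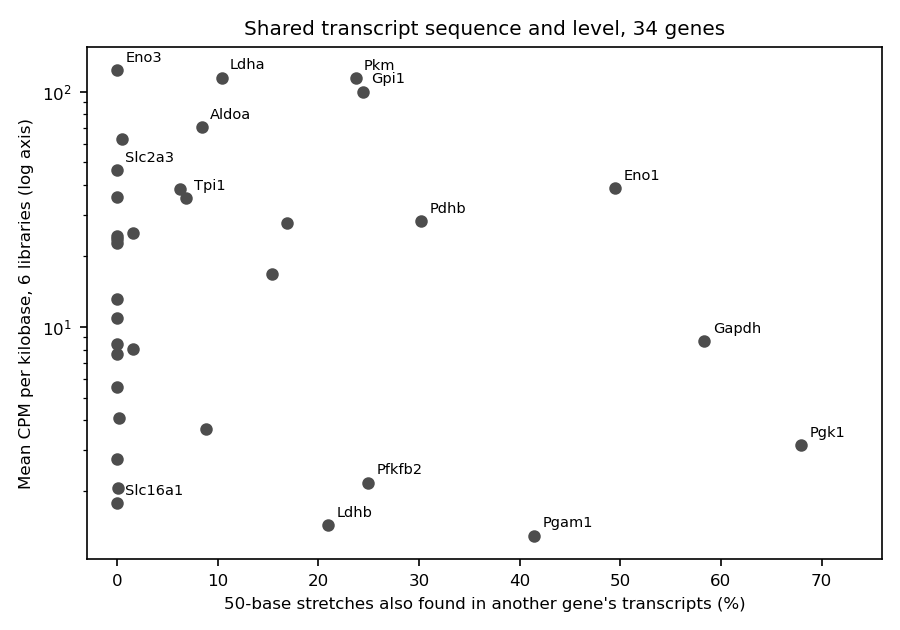
Percentage of the 50-base words of each gene that also occur in transcripts of other genes, against its mean CPM per kilobase over 6 libraries on a log axis. Pgk1, Gapdh and Pgam1 combined high sharing with low levels, while Eno1 shared 49.5% at 38.8 CPM per kilobase. Slc16a1, Pfkfb1 and Aldoc were also low, at 1.78, 2.07 and 2.73 CPM per kilobase, with at most 0.14% shared.

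The enolases carried the one call. Eno3 (chr11:70653125-70662513, mm10), which encodes the muscle-type beta-enolase, had 139, 149 and 132 CPM in the CpG-pretreated libraries numbered 2, 3 and 4, against 275, 227 and 202 CPM in their untreated counterparts. All CpG-pretreated libraries lay below all untreated ones. The mean was 139.9 ± 8.34 CPM in CpG-pretreated cells and 235 ± 37.4 CPM in untreated cells (SD, n = 3 each). Eno3 fell by 0.75 on the log2 scale (SE 0.13, edgeR adjusted p = 0.0444), or by 0.74 with the block (SE 0.09, edgeR adjusted p = 0.000225), and it was lower in all 3 same-numbered pairs. The call without the block rested on all 6 libraries. The edgeR adjusted p was 0.165, 0.149 and 0.0618 without CpG-pretreated library 2, 3 or 4, and 0.0527, 0.180 and 0.148 without untreated library 2, 3 or 4, while the log2 fold change stayed between -0.85 and -0.60.

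Eno1, the enolase of most tissues, had 80.7, 69.6 and 66.5 CPM in the CpG-pretreated libraries numbered 2, 3 and 4, against 72.4, 58.8 and 65.1 CPM in their untreated counterparts, with overlap (log2 fold change 0.14, SE 0.12, edgeR adjusted p = 0.737). Eno2, the neuronal isozyme, differed by -0.46 on the log2 scale (SE 0.32, edgeR adjusted p = 0.663). Eno3 therefore made up less of the family in CpG-pretreated cells. Its share of enolase CPM per kilobase was 65.4%, 68.9% and 68.6% in the CpG-pretreated libraries numbered 2, 3 and 4, against 79.3%, 80.1% and 76.8% in their untreated counterparts, and that of Eno1 averaged 29.9% ± 2.53 in CpG-pretreated cells and 18.9% ± 1.97 in untreated cells (SD, n = 3 each). Neither share overlapped, and Eno1 values carry the sharing with pseudogenes given above. Of the 9 families with several genes, 6 had at least 1 isozyme whose share did not overlap between the groups, described here without a test. No such count was made over other gene families, so the 6 have no background to be read against. Taken singly, 18.7% of all genes did not overlap in CPM. Each family had several shares that could separate, and in families of 2 genes the shares mirror each other.

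**Figure D5:**
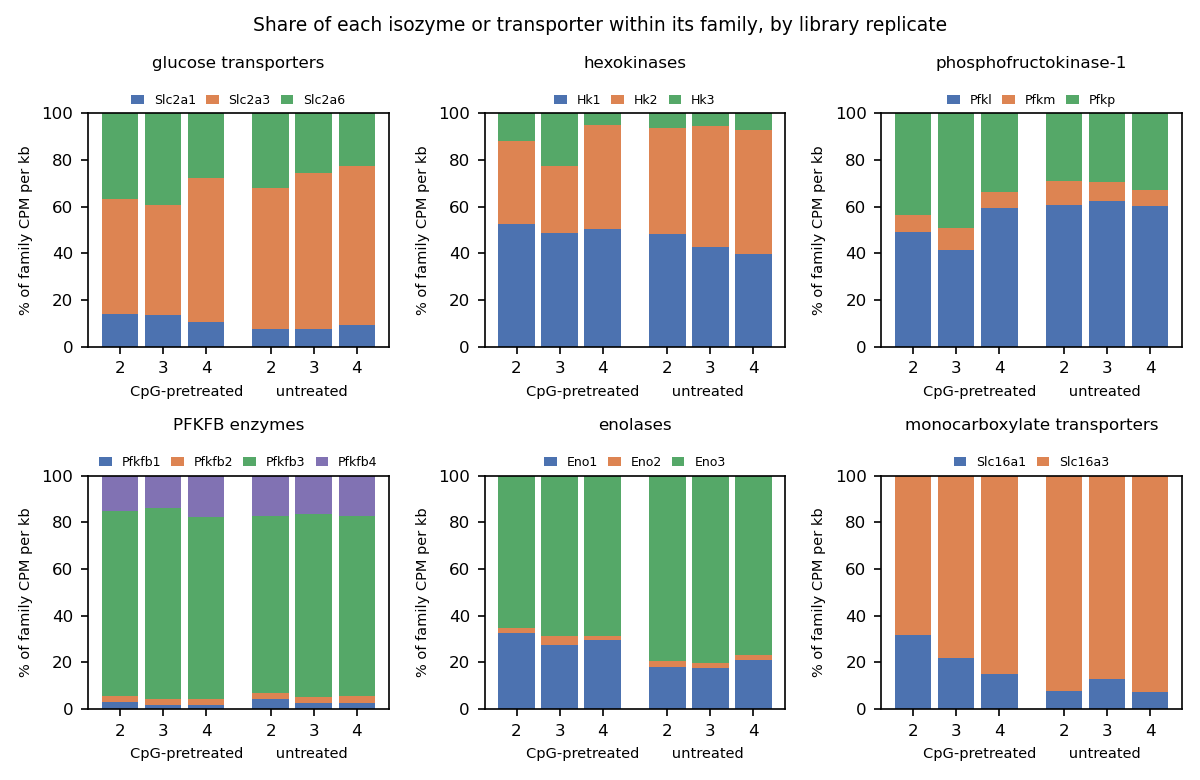
Share of each isozyme in its family's summed CPM per kilobase, in percent, for each library and 6 of the families, with CpG-pretreated libraries left of untreated ones. Eno3 held 65.4% to 68.9% of enolase in CpG-pretreated libraries and 76.8% to 80.1% in untreated ones.

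Pyruvate kinase and lactate dehydrogenase, the last steps to lactate, were high and did not pass the test. Pkm (chr9:59656576-59679372, mm10) had 342, 307 and 284 CPM in the CpG-pretreated libraries numbered 2, 3 and 4, against 283, 267 and 294 CPM in their untreated counterparts, with overlap (log2 fold change 0.14, SE 0.10, edgeR adjusted p = 0.675). Ldha (chr7:46842274-46855627, mm10), the form that favours lactate, had 261, 227 and 203 CPM in the CpG-pretreated libraries numbered 2, 3 and 4, against 239, 193 and 206 CPM in their untreated counterparts. Its groups overlapped too (log2 fold change 0.12, SE 0.13, edgeR adjusted p = 0.824). Ldha was 99.1% ± 0.495 of the lactate dehydrogenase CPM per kilobase in CpG-pretreated cells and 98.4% ± 0.321 in untreated cells (SD, n = 3 each). Ldhb had 0.859, 1.27 and 2.02 CPM in the CpG-pretreated libraries numbered 2, 3 and 4, against 3.07, 1.63 and 2.21 CPM in their untreated counterparts, and these low values overlapped (log2 fold change -0.74, SE 0.39, edgeR adjusted p = 0.509).

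The lactate transporter Slc16a1 showed the largest fold change of the 34 genes. Slc16a1 (chr3:104638664-104658462, mm10), which encodes MCT1, a carrier that takes up or releases lactate, had 18.03, 12.6 and 5.79 CPM in the CpG-pretreated libraries numbered 2, 3 and 4, against 2.95, 4.75 and 3.20 CPM in their untreated counterparts. All CpG-pretreated libraries stood above the untreated ones, library 4 by the least. The mean was 12.1 ± 6.13 CPM in CpG-pretreated cells and 3.63 ± 0.977 CPM in untreated cells (SD, n = 3 each). The log2 fold change of 1.74 (SE 0.41) did not pass the test (edgeR adjusted p = 0.0900), but with the block Slc16a1 rose by 1.68 on the log2 scale (SE 0.28, edgeR adjusted p = 0.00501). Without CpG-pretreated library 4 it was also called (log2 fold change 2.07, edgeR adjusted p = 0.00831). No other fit that left out 1 library called Slc16a1, and the edgeR adjusted p reached 0.270. Slc16a3, the lactate exporter MCT4, was higher per length and nearly level (22.5 ± 3.62 CPM in CpG-pretreated cells and 20.8 ± 2.67 CPM in untreated cells, SD, n = 3 each, log2 fold change 0.11, edgeR adjusted p = 0.878).

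Genes that govern the entry of pyruvate into the mitochondrion hardly differed. The log2 fold changes of the kinases were -0.12 for Pdk1 (SE 0.11, edgeR adjusted p = 0.786) and 0.14 for Pdk3 (SE 0.11, edgeR adjusted p = 0.729). Pdk3 had 82.4, 71.6 and 69.5 CPM in the CpG-pretreated libraries numbered 2, 3 and 4, against 73.1, 68.3 and 62.1 CPM in their untreated counterparts, with overlap. Among the subunits of the complex, Pdha1 had 76.8, 77.4 and 83.1 CPM in the CpG-pretreated libraries numbered 2, 3 and 4, against 68.2, 74.9 and 76.6 CPM in their untreated counterparts. Its groups just failed to overlap (log2 fold change 0.11, SE 0.10, edgeR adjusted p = 0.750). Pdhb and Dlat, the E1 beta and E2 subunits, had log2 fold changes of 0.02 and 0.07, and neither passed the edgeR test (adjusted p = 0.976 and 0.889).

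Hif1a (chr12:73901324-73947554, mm10) did not differ at the level of its RNA beyond the spread. It had 182, 185 and 201 CPM in the CpG-pretreated libraries numbered 2, 3 and 4, against 143, 190.0 and 205 CPM in their untreated counterparts, and the groups overlapped (log2 fold change 0.08, SE 0.14, edgeR adjusted p = 0.917). The protein's oxygen-dependent stability was not measured.

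Of 76 tested neighbouring genes of the pathway, 1 was called, the side-step enzyme Bpgm, where 0.974% of all genes were called. The groups did not overlap in CPM for 7 of the 76, compared with 18.7% of all genes. Bpgm makes 2,3-bisphosphoglycerate, which red blood cells hold in large amounts, and had 116, 118 and 45.1 CPM in the CpG-pretreated libraries numbered 2, 3 and 4, against 20.9, 26.1 and 20.5 CPM in their untreated counterparts. It rose by 2.04 on the log2 scale (SE 0.34, edgeR adjusted p = 0.0427), a call that was not kept with the block (edgeR adjusted p = 0.0679) or when any library other than CpG-pretreated 4 was left out (edgeR adjusted p between 0.146 and 0.187). With the block 2 genes were called, both higher, where 8.52% of all genes were called. Minpp1, whose enzyme can remove a phosphate from 2,3-bisphosphoglycerate, averaged 32.3 ± 2.20 CPM in CpG-pretreated cells and 23.8 ± 1.27 CPM in untreated cells (SD, n = 3 each, edgeR adjusted p = 0.109, with the block 0.0211). Ppp1r3d, a subunit that targets protein phosphatase to glycogen, averaged 5.55 ± 0.909 CPM in CpG-pretreated cells and 2.39 ± 0.564 CPM in untreated cells (SD, n = 3 each, edgeR adjusted p = 0.0733, with the block 0.0138).

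No gene of the pentose phosphate pathway passed the test, out of 8. Rpia and Tkt, which reshuffle pentose phosphates, had the largest log2 fold changes there, 0.28 and 0.16 (edgeR adjusted p = 0.2996 and 0.604). None of the 15 tested hypoxia regulators and targets passed, with Ankrd37 at -0.35 and Ndrg1 at 0.33 (edgeR adjusted p = 0.857 and 0.297), and none of the 14 regulators of glycolysis, with Ikbke at 1.01 and Rptor at -0.28 (edgeR adjusted p = 0.584 and 0.549). The remaining lists likewise had no call without the block beside Bpgm. Their largest log2 fold changes were -0.52 for Slc2a9 and -0.28 for Slc2a8 among other glucose transporters, -0.76 for Lipt1 and -0.41 for Pdk2 in pyruvate entry, -0.50 for Slc16a6 among side steps, and -0.45 for Ppp1r3b after Ppp1r3d in glycogen metabolism.

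Several marker lists of other cells and of dendritic cell subsets differed alongside these genes. The erythroid markers, of which 12 of 14 were in the table and 7 were tested with 3 called higher, summed to 1151, 1061 and 241 CPM in the CpG-pretreated libraries numbered 2, 3 and 4, against 44.4, 115 and 41.2 CPM in their untreated counterparts, and Hba-a1 was at 0 throughout. As for Slc16a1, Pfkp, Hk3 and Bpgm, CpG-pretreated library 4 was the lowest of its group. That held for other glycolysis genes too, among them Hk1, Gpi1, Pkm, Ldha and Eno3. For Slc2a3, Hk2, Hif1a and Pdha1, among others, library 4 was the highest of its group. The red pulp macrophage markers, of which 5 of 11 were called lower and 9 with the block, summed to 381, 431 and 519 CPM in the CpG-pretreated libraries numbered 2, 3 and 4, against 607, 720.0 and 737 CPM in their untreated counterparts. This is the order that Slc2a3 showed within each group, as did Hk2, Hif1a and Pdha1, which were not called. The untreated libraries stood in the opposite order for Eno3. The cell cycle genes, 1 of 14 called higher and all 14 with the block, summed to 2673, 2244 and 2223 CPM in the CpG-pretreated libraries numbered 2, 3 and 4, against 1595, 1650.0 and 1604 CPM in their untreated counterparts. The cDC1 markers, of which none of 8 was called without the block and 4 were higher with it (Xcr1, Tlr3, Irf8 and Itgae), summed to 262, 298 and 167 CPM in the CpG-pretreated libraries numbered 2, 3 and 4, against 147, 169 and 167 CPM in their untreated counterparts. Here too CpG-pretreated library 4 was the lowest of its group. The cDC2 markers, of which 1 of 9 was called lower (Esam, log2 fold change -0.75, edgeR adjusted p = 0.0444) and 4 with the block (Esam, Cd4, Dtx1 and Cd209a), summed to 2916, 3028 and 3929.8 CPM in the CpG-pretreated libraries numbered 2, 3 and 4, against 3374, 3894 and 4005 CPM in their untreated counterparts. These sums overlapped between the groups and stood within each group in the order of Slc2a3, Hk2, Hif1a and Pdha1. With the block only, 2 of 8 monocyte markers were called lower (Treml4 and Ace) and 1 of 6 tested neutrophil markers higher (Mpo). Of all genes, 3.78% were called lower and 4.73% higher with the block. Without the block, 4 of the 8 monocyte markers had a log2 fold change above 0, and the median was 0.03. The largest was 1.57 for Ly6c2, which was not called in either fit. All 6 tested neutrophil markers had a log2 fold change above 0. Monocyte sums, in the same library order, were 847, 782 and 861 CPM in CpG-pretreated and 853, 848 and 973 CPM in untreated libraries. Neutrophil sums were 104, 60.2 and 54.9 CPM in CpG-pretreated and 76.9, 32.4 and 3.93 CPM in untreated libraries. The part of any of these lists in the results above was not tested. In bulk RNA, fewer cells of a type and less RNA per cell cannot be told apart.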

How the data were processed

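Messenger RNA was sequenced from sorted CD8-negative dendritic cells in 6 libraries, 3 per group. The authors deposited raw read counts for Entrez gene IDs, made with CASAVA, featureCounts and the mm10 build per the submitters' processing notes, which give no versions. The sources used here do not give the aligner, strandedness or handling of reads with several matching genes. The counts of each of the 6 samples equalled those of the series table. RefSeq (GRCm38.p6) gave symbols for 25275 IDs and none for 1904, which held 0.327% of the counts.

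In R 4.3.3, edgeR 4.0.16 (filterByExpr with minimum count 10 and total 15, TMM, robust quasi-likelihood F test, two-sided) tested 11602 genes, with Benjamini-Hochberg adjustment over all of them. Calls required an adjusted p under 0.05, and SE was derived from the F statistic. The test was checked on simulated counts. Their planted changes were larger than that of Eno3, and they held no effect of replicate number or gene length. The check therefore does not bear on the calls above. Total counts of 7855500 to 8228140 make 1 count 0.122 to 0.127 CPM. The series calls the samples of a group biological replicates, and p-values measure only the spread between these samples.

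Both groups carry replicate numbers 2, 3 and 4, and no label explains the numbering. Deviations from the group means of log2 CPM correlated across genes at 0.48, 0.25 and 0.31 between same-numbered libraries (-0.39 to 0.07 between others), so the numbers were taken as pairs from the data alone. The alternatives were the replicate block, other scalings and filters, DESeq2 1.42.0, voom in limma 3.58.1, a gene length correction, and leaving out libraries.

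All 34 genes are named. Values per library are given for genes called in either fit, the 4 highest per kilobase and the largest change in each family. Other genes are named if called, or as up to 2 per list by largest change. The genes and lists were chosen with earlier results of these data known.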

Additional observations from a re-analysis of the deposited data

How the results depend on the processing

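The count of all genes called, 113 as reported, was 988 with the replicate block, 1149 with the block and a gene length correction, 189 without a filter on low counts, 428 with DESeq2 and 41 with limma-voom. A length correction without the block gave 368, and leaving out both libraries numbered 2 gave 67, both chosen after seeing the data. Of the 34 glycolysis genes, 1 as reported, 4 were called with the block, 5 with the block and length correction, 5 with DESeq2, 3 with length correction alone and 0 with limma-voom (6 at an unadjusted p under 0.05). Of the 76 neighbouring genes, 1 as reported, 2 were called with the block, 4 with the block and length correction, 2 with DESeq2, 2 with length correction alone, 0 with limma-voom, 0 without a filter and 0 without both libraries numbered 2 (6, 9 and 6 at an unadjusted p under 0.05). Leaving out 1 library gave 0 to 386 for all genes (386 without CpG-pretreated 4), 0 to 4 for the 34 genes and 0 to 2 for the neighbours. Where none of the 34 genes was called, edgeR had 5 to 8 at an unadjusted p under 0.05.

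Over all settings run, the median log2 fold change of the 34 genes stayed within the spread of its pairs. Isozyme shares were rerun only on counts without the gene length and with each library left out, where 6 to 8 families had a non-overlapping share. Leaving out a library cannot make a non-overlapping share overlap, so in those reruns the count could not fall below 6. Of 595 values of the 34 genes and Bpgm under the alternatives, 17 gained and 18 lost a call, and none that was called had the opposite sign. Uncalled genes near 0 did change sign: Pdhb had the reported sign in 13 of 17 alternatives (-0.07 to 0.07), Pgk1 in 14 (-0.20 to 0.42), Pfkfb3 and Hif1a in 15, and Slc2a6, Pfkl and Pgam1 in 16. Eno3 was lower in 17 of 17 alternatives and called in 10 of them, and limma-voom gave an adjusted p of 0.0598. The block changed no call among the 34 genes beyond Hk1, Slc2a3 and Slc16a1. Both libraries numbered 2 shared a trend of their deviations with gene length (Spearman -0.55 in CpG-pretreated 2 and -0.67 in untreated 2). The cause of these shifts was not tested. Depth limits the genes near 1 CPM, such as Ldhb and Pgam1.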
